A study of Mus musculus with 3 samples.

Results

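Apoe-high macrophages were cell barcodes of the aortic immune-cell library labelled HHcy that carried at least 10 Apoe transcripts, counted as unique molecular identifiers (UMIs). Barcodes were first kept when they had at least 200 detected genes, at most 10% of UMIs in mitochondrial genes, at least 1 Csf1r UMI, and no UMI of Cd79a (B cells) or Cd3e (T cells). Of 1301 kept barcodes in this library, 172 were Apoe-high, out of 25822 barcodes in the 3 libraries of the series. The comparison was with the 967 kept barcodes of the same library that had 0 or 1 Apoe UMI, and 162 barcodes with 2 to 9 UMIs lay between. Members were chosen by their Apoe UMIs, so the Apoe values are a description.

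The 3 libraries held live, Hoechst+ CD45+ cells sorted from digested whole aortas of mice, adventitia included. All mice were labelled ApoE-/- on the C57BL/6J strain. One library came from control mice, one from mice that drank water with 1.8 g/L homocysteine (Hcy) over 4 weeks (labelled HHcy), and one from mice on a western diet for 4 weeks (WD). The labels give no sex, age or number of pooled mice, and do not say which part of Apoe is disrupted. They also do not tell which mouse a barcode came from, so a difference between members and comparison barcodes cannot be told apart from one between animals. With 1 library per group, library and treatment cannot be told apart, no test between groups is possible, and cells are not replicates. Every interval below is a 95% interval that covers counting error only.

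Apolipoprotein E is the secreted protein that lets lipoprotein particles bind their receptors, and in macrophages it also carries cholesterol out of the cell. Macrophages are among its main sources outside the liver, and its transcription in them is raised by the liver X receptors (LXR) when sterols accumulate. In arteries, Lyve1, Folr2 and Cd163 mark the macrophages that live in the adventitia, whereas foamy, Trem2-bearing macrophages collect in lipid-rich plaques.

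All mice were labelled ApoE-/-, yet Apoe UMIs were far more common in this library than in the control and WD libraries. The cause was not tested. Apoe reached 10 UMIs in 172 of 1301 kept barcodes of the library labelled HHcy (13.2%, 11.4 to 15.2%), in 1 of 1940 in the control library (0.0515%) and in 2 of 2867 in the WD library (0.0698%). Over all kept barcodes the Apoe level in CPM (counts per 1000000 UMIs) was 788 in the library labelled HHcy (773 to 803), 25.0 in the control library and 23.9 in the WD one. The highest single barcode held 308 Apoe UMIs in the library labelled HHcy, 19 in the control and 13 in WD. Median depths of kept barcodes in the same order were 8865, 8393 and 10117 UMIs. The counts come from the 3′ end of transcripts and do not show whether an Apoe transcript is intact.

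**Figure D1:**
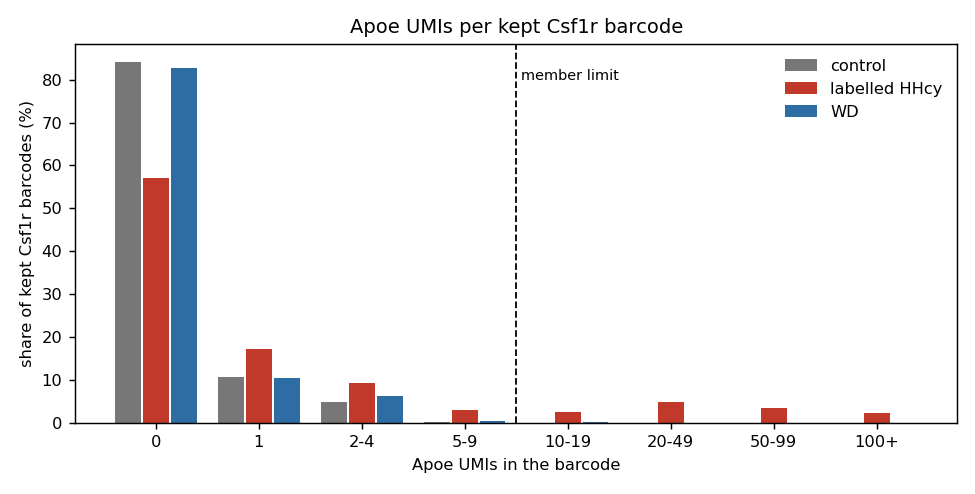
Share of kept Csf1r-positive barcodes (percent, y axis) in each class of Apoe UMIs (x axis), by library. The library labelled HHcy has a long upper tail, with 172 of its 1301 barcodes at 10 UMIs or more against 1 and 2 barcodes in the control and WD libraries.

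The starts of 3 genes on which the results turn are shown here as the 250 bases before each transcription start (RefSeq, GRCm38.p6). These are Apoe, which chose the members; Hal, the histidine ammonia-lyase that begins histidine breakdown; and Ifi202b, an interferon-inducible DNA-binding protein of the p200 family. Apoe lies on the minus strand of chromosome 7, and its window chr7:19699189-19699438 precedes the farthest upstream of 3 listed starts. The Hal window is chr10:93488518-93488767 on the plus strand, and the Ifi202b window is chr1:173982845-173983094 on the minus strand. Capitals mark matches to 4 motifs searched on both strands: the PU.1 core GAGGAA, a Maf half-site TGCTGA, the GC box GGGCGG and the TATA box TATAAA.

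Apoe: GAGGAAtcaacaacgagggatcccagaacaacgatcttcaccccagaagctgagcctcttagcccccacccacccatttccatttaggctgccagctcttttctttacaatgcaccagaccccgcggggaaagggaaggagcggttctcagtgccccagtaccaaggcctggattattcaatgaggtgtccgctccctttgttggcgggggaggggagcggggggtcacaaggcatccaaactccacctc

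Hal: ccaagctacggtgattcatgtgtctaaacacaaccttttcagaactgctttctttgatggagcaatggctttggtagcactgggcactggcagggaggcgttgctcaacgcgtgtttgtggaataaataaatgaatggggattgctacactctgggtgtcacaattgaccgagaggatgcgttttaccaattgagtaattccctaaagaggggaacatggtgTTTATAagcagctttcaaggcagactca

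Ifi202b: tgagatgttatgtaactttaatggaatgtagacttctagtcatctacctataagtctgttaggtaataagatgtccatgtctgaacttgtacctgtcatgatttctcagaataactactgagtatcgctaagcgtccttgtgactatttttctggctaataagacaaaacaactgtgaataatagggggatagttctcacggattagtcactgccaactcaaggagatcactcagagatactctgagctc

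The Apoe window held 1 match, a PU.1 core whose letters occur in 23.3% of 32851 RefSeq windows of this length. The Hal window held 1 match, a TATA box on the opposite strand, found in 12.4% of windows. The Ifi202b window held 0 matches, which says only that these letters are not in it. The windows differ in base composition, with 57.2% G and C for Apoe, 45.6% for Hal and 38.4% for Ifi202b.

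Among the 172 members, Apoe ranged from 10 to 308 UMIs per barcode with a median of 43, and its summed level was 5525 CPM. The level was 304 CPM in the barcodes with 2 to 9 UMIs and 22.4 CPM in those with 0 or 1. Members spread over this range rather than resting on a few cells, since the 10 richest held 19.6% of their Apoe UMIs. Among the 57 members without resident markers, defined below, the 10 richest held 53.7%. At the threshold itself, 20 barcodes had 7 to 9 UMIs and 9 had 10 to 12. Members and comparison barcodes were of similar depth, with medians of 8387 and 8924 UMIs and of 2609 and 2627 genes. Csf1r, the macrophage growth factor receptor, stood at 878 CPM in members and 567 CPM in the comparison.

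Marker lists were set beside their label as macrophages. All 172 members carried at least 3 markers of the mature macrophage list, against 93.3% of the comparison barcodes. This list includes Csf1r, which every kept barcode carried by the rule, so that marker was given in both groups. Of the comparison, 25.1% fell in the non-classical and 13.9% in the classical monocyte class, described below. The count therefore does not tell macrophages from monocytes. Barcodes can also carry RNA of other cells: 110 of 172 members (64.0%) and 666 of 967 comparison barcodes (68.9%) held at least 3 markers of another lineage. The most extreme barcodes lay in the comparison group, where the neutrophil list reached 509319 CPM in a single barcode against 216546 CPM among members, although the medians per barcode were 542 and 421 CPM. Summed over the groups, the neutrophil list stood at 22626 CPM in the comparison and 3499 CPM in members. The endothelial list was summed at 360 CPM in members (332 to 388) and 216 CPM in the comparison, with 0 UMIs in members for 4 of its 12 genes (Cdh5, Tie1, Emcn and Esam) and a highest single barcode of 4174 CPM against 15147 CPM. In resident-marker barcodes it was at 93.6 and 83.6 CPM. The smooth muscle genes Myh11, Actg2 and Des had 0 UMIs in members. The part of this other RNA in the results was not tested. Free RNA was read from T cells, of which 17.0% had any Apoe UMI at a median of 6023 UMIs, against 42.9% of kept Csf1r barcodes at 8865 UMIs. The highest T cell barcode held 7 Apoe UMIs, so none of 135 reached 10, which allows a share of up to 2.22%. Among 3663 B cell barcodes, 18 reached it (0.491%).

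Apoe-high barcodes were found in every macrophage and monocyte class that was distinguished, most often among those with at least 2 UMIs of Lyve1, Folr2 and Cd163 together, here called resident-marker barcodes. There, 115 of 424 were Apoe-high (27.1%, 22.9 to 31.6%). The share was 11.4% (5 of 44) in barcodes with dendritic cell markers, 9.74% (19 of 195) in those with no marker of any class, and 6.58% (21 of 319) in those with non-classical monocyte markers. It was 4.65% (8 of 172; 2.03 to 8.96%) in barcodes with foamy markers but not resident ones, and 23.3% (21 of 90; 15.1 to 33.4%) in resident-marker barcodes that also had at least 2 UMIs of the foamy genes Gpnmb and Trem2. It was 2.72% (4 of 147; 0.746 to 6.82%) in classical-monocyte-marker barcodes. Each barcode counted in 1 class, and resident markers took precedence. The interval of the resident-marker class lay above those of the other classes except the dendritic one (3.79 to 24.6%). No resident-marker barcode of 562 in the control library was Apoe-high, which allows a share of up to 0.534%, and 1 of 986 was in WD.

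**Figure D2:**
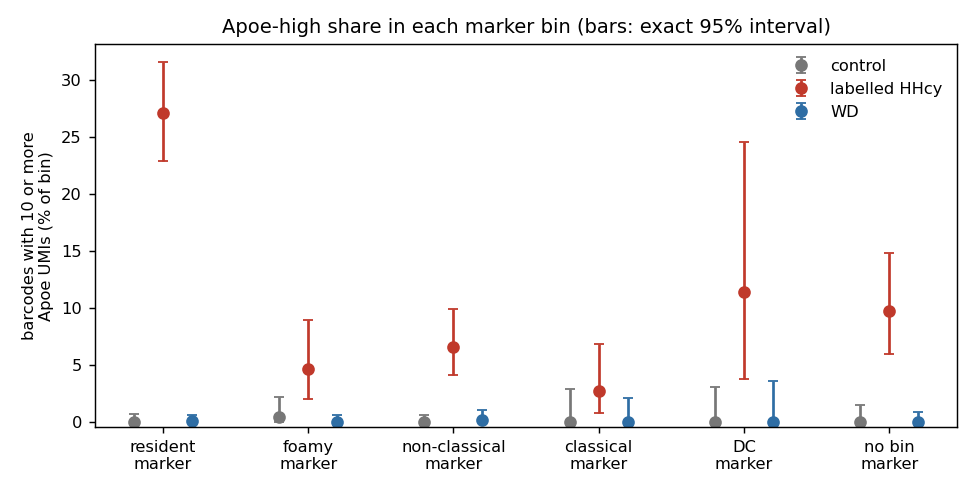
Share of kept barcodes that were Apoe-high (percent, y axis) in each marker class of the library labelled HHcy, with 95% binomial intervals. Resident-marker barcodes stand at 27.1%, and foamy-marker and classical-monocyte-marker barcodes at 4.65% and 2.72%.

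Read the other way, 66.9% of members were resident-marker barcodes (59.3 to 73.8%), against 40.7% of the barcodes with 2 to 9 Apoe UMIs and 25.1% of those with 0 or 1. Foamy-marker barcodes made up 4.65% of members and 14.9% of the comparison, non-classical ones 12.2% and 25.1%, and classical ones 2.33% and 13.9%. A comparison of all kept barcodes thus sets groups of different makeup side by side, and a second comparison was made inside the resident-marker class, of 115 members with 243 barcodes. Its groups had median depths of 7080 and 7476 UMIs.

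Over all kept barcodes, genes of resident macrophages were higher in members and genes of blood monocytes and neutrophils were lower. Of 8080 genes with at least 100 UMIs, 252 (3.12%) were at least 2-fold higher in members and 309 (3.82%) at least 2-fold lower, and the median gene had a log2 ratio of 0.00. Without barcodes holding at least 3 markers of another lineage, which left 62 members and 301 comparison barcodes, 109 genes were higher and 193 lower. Of the 20 resident macrophage genes, 18 were at least 2-fold higher, with a median log2 ratio of 1.55. This list includes all the class markers, Lyve1, Folr2 and Cd163. Folr2, a folate receptor, stood at 615 CPM in members and 175 CPM in the comparison (log2 ratio 1.81, 1.70 to 1.92). Lyve1, a hyaluronan receptor, stood at 515 and 149 CPM. The list also held Timd4, the phosphatidylserine receptor with which macrophages bind dying cells, at 161 against 39.5 CPM and in 44.8% against 13.9% of barcodes (log2 ratio 2.02, 1.80 to 2.25). The highest of the list was Vsig4, a complement receptor, at 2.89, seen in 11.6% of members and 2.90% of the comparison. The secreted lectin Fcna (1.75), the carbonyl reductase Cbr2 (1.73) and the leukotriene synthase Ltc4s (1.63) were higher too. Without barcodes holding at least 3 markers of another lineage, Ltc4s was at 0.89, under 2-fold, and Fcna at 1.19. Also higher were the long noncoding Gm10134 (1.94), Tcim (1.83) and the actin-capping Tmod1 (1.82). In the barcodes outside the resident-marker class, 57 against 724, Timd4 was at 3.05 whereas Lyve1, which defines the class, was at -0.51. Inside the class, the upper quartile of Timd4 per barcode was 240 CPM in members and 160 CPM in the comparison, with a median of 0 in both.

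The lower genes were led by myeloid genes of the blood. S100a8 and S100a9, which form calprotectin, stood at 1034 and 1622 CPM in members against 8316 and 10401 CPM in the comparison, yet were detected in similar shares of barcodes, 52.3% and 58.3% for S100a8. Without the barcodes in which neutrophil, fibroblast or smooth muscle markers exceeded 1% of UMIs, which left 165 members and 814 comparison barcodes, S100a8 was at 0.32 and S100a9 at 0.26 instead of -3.01 and -2.68. Both genes are in the neutrophil list, and these lists chose the barcodes dropped, so a rise of their ratios was built into the filter. The neutrophil list as a whole went from a median of -2.10, with 11 of 12 genes at least 2-fold lower, to -0.40, and the fibroblast list from -2.09 to -0.53. By contrast, 3 of 4 tested T or NK cell genes were at least 2-fold higher in members, with a median of 1.93. The summed level of that list was 209 against 89.7 CPM, but its median per barcode was 0 in both groups. At least 3 of its markers were in 5.23% of members and 2.38% of the comparison, and the highest barcodes reached 3686 and 10845 CPM. The B cell list had a median of 0.13. In the classical monocyte list, 8 of 11 genes were at least 2-fold lower with a median of -1.67, and the median was -1.81 without those barcodes. Its members Ly6c2, the surface antigen of classical monocytes, and Vcan, a matrix proteoglycan, had log2 ratios of -2.05 and -3.87, and Ly6c2 was detected in 15.7% of members and 41.3% of the comparison. The chitinase-like Chil3 (-2.46) and haptoglobin Hp (-2.14) were lower as well. Fibronectin Fn1 went the other way, at 2000 CPM against 886 CPM, and was detected in fewer members (27.3%) than comparison barcodes (32.8%).

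**Figure D3:**
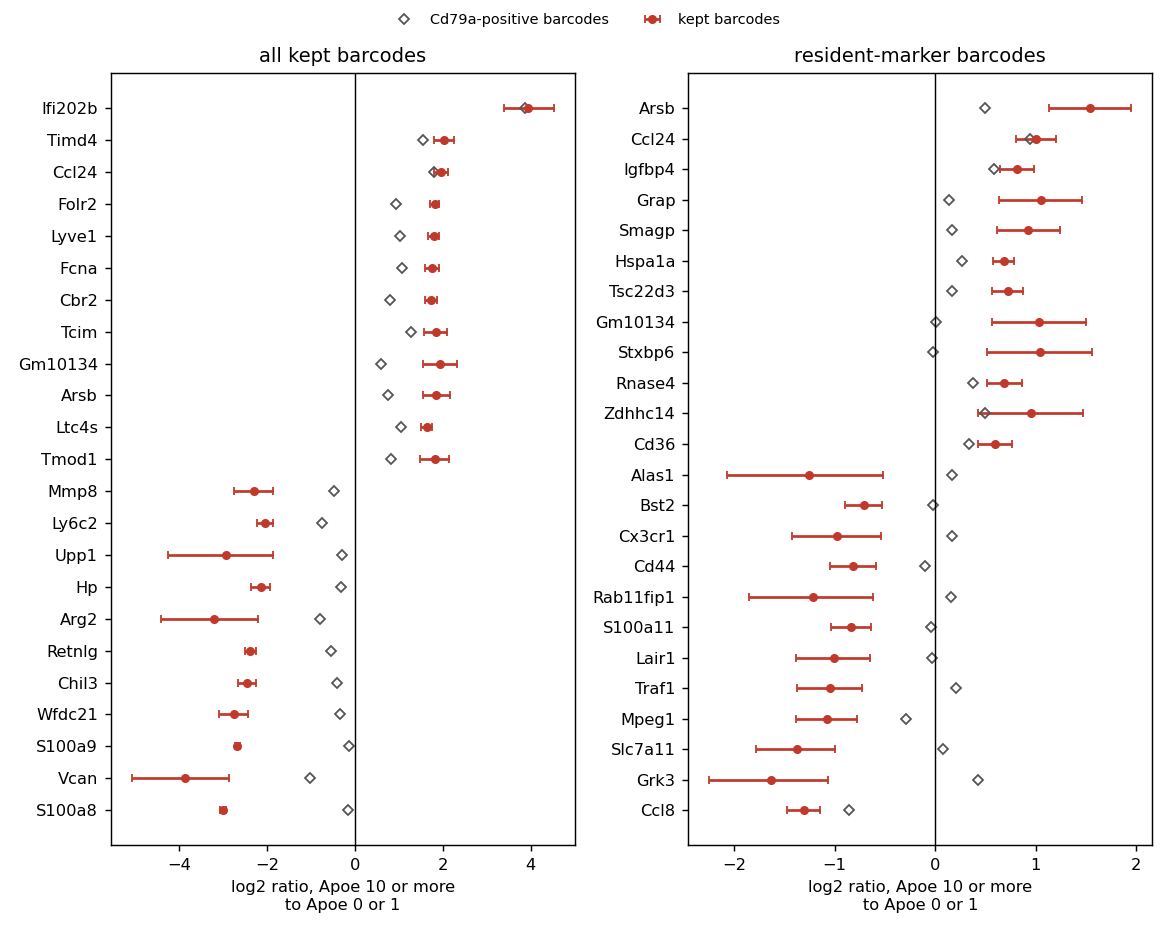
Log2 ratio of summed CPM (x axis) between barcodes with at least 10 and with 0 or 1 Apoe UMIs for genes named by rule, over all kept barcodes (left) and resident-marker barcodes (right). Red points with bars are kept barcodes with 95% counting intervals, and grey diamonds are barcodes left out for Cd79a. Ifi202b (3.95 and 3.87) and Ccl24 lie together in both sets, whereas the lower genes lie nearer 0 in the Cd79a-positive barcodes, Ccl8 at -0.86. Grk3 and Slc7a11 cross 0 there.

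Inside the resident-marker class few genes differed. Of 4494 genes tested there, 23 (0.512%) were at least 2-fold higher in members and 83 (1.85%) at least 2-fold lower. Without barcodes holding at least 3 markers of another lineage the counts were 2 and 15, from 48 and 92 barcodes, and 52 were lower without those rich in neutrophil, fibroblast or smooth muscle markers. The resident macrophage list had a median of 0.46, with 1 of 17 tested genes at least 2-fold higher (Vsig4, 1.38) and 1 at least 2-fold lower (Ccl8, -1.31). The mature macrophage list had a median of 0.11. Most resident macrophage genes were thus under 2-fold apart here.

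Ccl24, the eosinophil-attracting chemokine eotaxin-2, was higher in members both inside and outside the resident-marker class. In resident-marker barcodes it stood at 398 CPM in members and 199 CPM in the comparison (log2 ratio 1.00, 0.81 to 1.20), and was detected in 78.3% and 51.0% of barcodes. Its level followed the Apoe class, at 199 CPM with 0 or 1 Apoe UMI, 239 CPM with 2 to 9, 329 CPM with 10 to 49 and 456 CPM with at least 50. The log2 ratio was 1.80 outside the resident-marker class and 0.95 in the Cd79a-positive barcodes with resident markers. Resident-marker barcodes of the control and WD libraries stood at 123 and 105 CPM.

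The chemokine Ccl8 ran opposite to it. It stood at 359 CPM in resident-marker members and 890 CPM in the comparison (log2 ratio -1.31, -1.47 to -1.15), with levels of 890, 732, 444 and 288 CPM over the same 4 Apoe classes. The share of barcodes with Ccl8 was similar, 43.5% of members and 42.4% of the comparison, so the difference lay in the number of UMIs per positive barcode. In the Cd79a-positive resident-marker barcodes the log2 ratio was -0.86. Without barcodes holding at least 3 markers of another lineage it was -0.82, under 2-fold, and with mitochondrial UMIs at most 5% it was -2.16. Resident-marker barcodes of the control and WD libraries stood at 277 and 1265 CPM.

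The other named genes of the resident-marker class had log2 ratios from -1.63 to 1.54. Arylsulfatase B (Arsb), a lysosomal enzyme that degrades glycosaminoglycans, stood at 115 against 39.4 CPM (log2 ratio 1.54, 1.13 to 1.95). The growth factor-binding protein Igfbp4 was at 0.81, the adaptor Grap at 1.05, the glucocorticoid-induced Tsc22d3 at 0.72, the heat shock gene Hspa1a at 0.68, and the fatty acid and oxidised lipoprotein receptor Cd36 at 0.59. Smagp (0.93), Stxbp6 (1.04), the ribonuclease Rnase4 (0.69), the palmitoyltransferase Zdhhc14 (0.95) and Gm10134 (1.04) were higher too. On the lower side were the receptor kinase Grk3 (-1.63), the cystine transporter Slc7a11 (-1.38), the pore-forming Mpeg1 (-1.07), the inhibitory collagen receptor Lair1 (-1.01), the hyaluronan receptor Cd44 (-0.82) and the fractalkine receptor Cx3cr1 (-0.97). The signalling adaptor Traf1 (-1.05), the calcium-binding S100a11 (-0.84), Rab11fip1 (-1.21), tetherin Bst2 (-0.71) and Alas1, the first enzyme of heme synthesis (-1.26), were lower too. In Cd79a-positive resident-marker barcodes, most of these values were nearer 0, for example 0.49 for Arsb. Grk3 (0.43) and Slc7a11 (0.08) had the opposite sign there. Those barcodes were deeper, with medians of 19441 and 17958.5 UMIs, and the part that B cell RNA plays in them was not tested. Without kept barcodes holding at least 3 markers of another lineage, Grap was at 0.56, Cd36 at 0.31, Slc7a11 at -0.79 and Cd44 at -0.35. Grk3 (-3.16) and Traf1 (-1.56) were then further from 0.

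Hal and Ifi202b had larger ratios and were detected in few of the comparison barcodes. Hal was named after its values were seen, since its 5 richest barcodes held more of its UMIs than the rule for named genes allows; Ifi202b came from the rule. Hal had at least 1 UMI in 47 of 172 members (27.3%) and in 30 of 967 comparison barcodes (3.10%), at 104 against 6.09 CPM (log2 ratio 4.09, 3.67 to 4.53). It was at 6.43 and 6.01 CPM in all kept barcodes of the control and WD libraries. Outside the resident-marker class, defined above, Hal was in 14 of 57 members and 30 of 724 comparison barcodes. Most of these held a gene set described at the end. As a level for free RNA, 1.48% of T cell barcodes of the same library had Hal, and 1.48% had Ifi202b, at a median of 6023 UMIs.

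In the resident-marker class the contrast for Hal was wider. There, 33 of 115 members (28.7%, 20.6 to 37.9%) held 163 Hal UMIs, with up to 18 in 1 barcode, and 0 of 243 comparison barcodes held any, which allows a share of up to 1.23%. With the comparison count of 0 set to 3 UMIs, the ratio for Hal was 117-fold. Of the 36 resident-marker barcodes with Hal, 33 were members and the other 3 had 2 to 9 Apoe UMIs. The share was 15.5% of 58 barcodes with 10 to 49 Apoe UMIs and 42.1% of 57 with at least 50. In the control library 4 of 562 resident-marker barcodes had Hal, and in WD 13 of 986.

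Ifi202b showed a different distribution. It was found in 49 of 172 members (28.5%) and 13 of 967 comparison barcodes (1.34%), at 58.5 against 3.79 CPM (log2 ratio 3.95, 3.40 to 4.52), and in 10.5% of the barcodes with 2 to 9 Apoe UMIs. In contrast to Hal it was commoner outside the resident-marker class, in 30 of 57 members (52.6%) against 11 of 724 comparison barcodes, than inside it, in 19 of 115 against 2 of 243. In members of 4 other classes it was found in 5 of 8 foamy-marker, 8 of 21 non-classical, 2 of 4 classical and 4 of 5 dendritic-marker barcodes. Its share was similar at both levels of Apoe among members, 28.9% with 10 to 49 UMIs and 28.0% with at least 50.

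**Figure D4:**
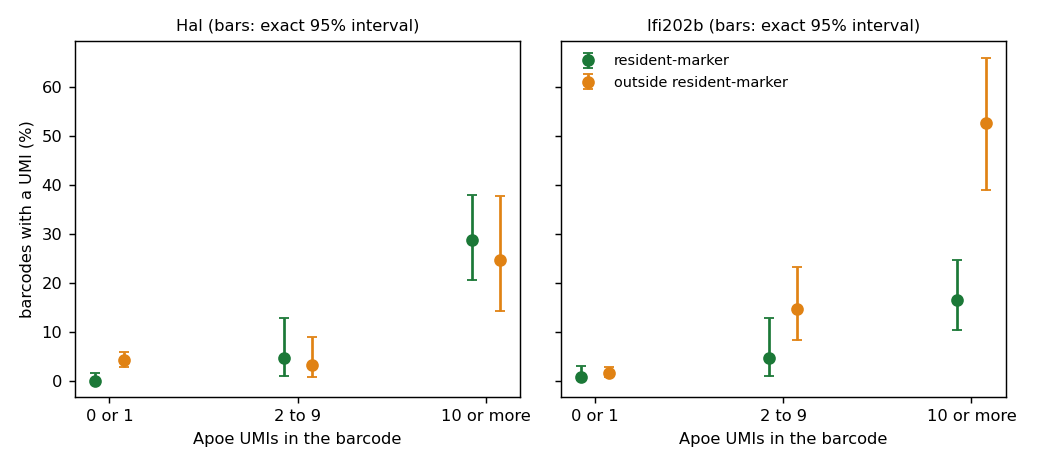
Share of barcodes with at least 1 UMI of Hal or of Ifi202b (percent, y axis) by Apoe UMI class, for resident-marker barcodes and those outside the class, with 95% intervals. Hal reaches 28.7% of resident-marker members and 0 of 243 in the comparison, and Ifi202b 52.6% of members outside the class.

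Between libraries, Ifi202b was in 79 of 1301 kept barcodes of the library labelled HHcy (6.07%) and 104 of 1940 of the control library (5.36%). In WD it was in 3 of 2867 (0.105%). In the control library it was commoner inside the resident-marker class, in 51 of 562 barcodes (9.07%), than outside it, in 53 of 1378 (3.85%). Of 522 control resident-marker barcodes with 0 or 1 Apoe UMI, 48 had Ifi202b. Its level is known to differ between inbred strains of mice, and its gene has close relatives, so reads may have been split among them. Of 172 members, 11 carried both Hal and Ifi202b and 85 carried either, against 43 of 967 comparison barcodes with either. Barcodes the rule left out showed the same pair: among Csf1r barcodes with Cd79a, Hal was in 51 of 275 Apoe-high and 19 of 1168 comparison barcodes, and Ifi202b in 71 and 15. Among those over 10% mitochondrial UMIs, Hal was in 6 of 36 and 4 of 278, and Ifi202b in 7 and 7.

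Over all kept barcodes, neither the genes around Apoe nor the LXR target and cholesterol efflux genes were higher as groups. Among the neighbours of Apoe on its chromosome, which include the apolipoprotein genes Apoc1 and Apoc2, 9 had enough UMIs. Their median was -0.22 over all kept barcodes, with 0 of 9 at least 2-fold higher and 2 lower. The shares of all genes were 3.12% higher and 3.82% lower. In the resident-marker class the median was 0.18 over 7 genes, with Apoc2 lowest at -1.03. The LXR and cholesterol efflux list, for which Apoe is itself a known target, had a median of -0.43 over 16 genes, with 1 at least 2-fold higher, the phospholipid transfer protein Pltp at 1.12, and 2 lower. The cholesterol exporter Abcg1 was at -1.07, at 59.1 CPM in members and 124 CPM in the comparison, and Abca1 was at 0.20. In the resident-marker class Abcg1 was at -0.88 and lipoprotein lipase Lpl at -1.05. Cholesterol synthesis genes had a median of 0.30, with 0 of 10 at least 2-fold apart in either direction. Members thus had more Pltp and less Abcg1, and 4 of the 16 genes of the LXR and efflux list lay above 0.

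In summed counts, more genes of foamy macrophages were lower than higher. Over all kept barcodes, 2 of 15 were at least 2-fold higher, Cd36 at 1.36 among them, and 4 were lower, the lowest being Gpnmb, a glycoprotein of lipid-laden macrophages, at -3.23. The shares of all genes were 3.12% higher and 3.82% lower. In the resident-marker class, 6 of 15 were at least 2-fold lower, against 1.85% of all genes. Per barcode, the median of the summed list was 2767 CPM in members and 2846 CPM in the comparison, and 2357 and 2169 CPM in the class, while the highest barcode reached 10815 CPM in members and 53960 CPM in the comparison. Spp1, osteopontin, was lowest there with 4 UMIs in members and 409 in the comparison (-5.57), but it was detected in only 3.48% and 7.82% of barcodes. Scavenger receptors had a median of 0.26, from the mannose receptor Mrc1 at 1.36 to Marco at -1.96. Complement genes had a median of 0.86, with 6 of 15 at least 2-fold higher and 2 lower (Serping1 at -2.43), against 3.12% and 3.82% of all genes. In the resident-marker class the complement median was 0.21, with 1 of 14 higher (0.512% of all genes) and 0 lower.

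**Figure D5:**
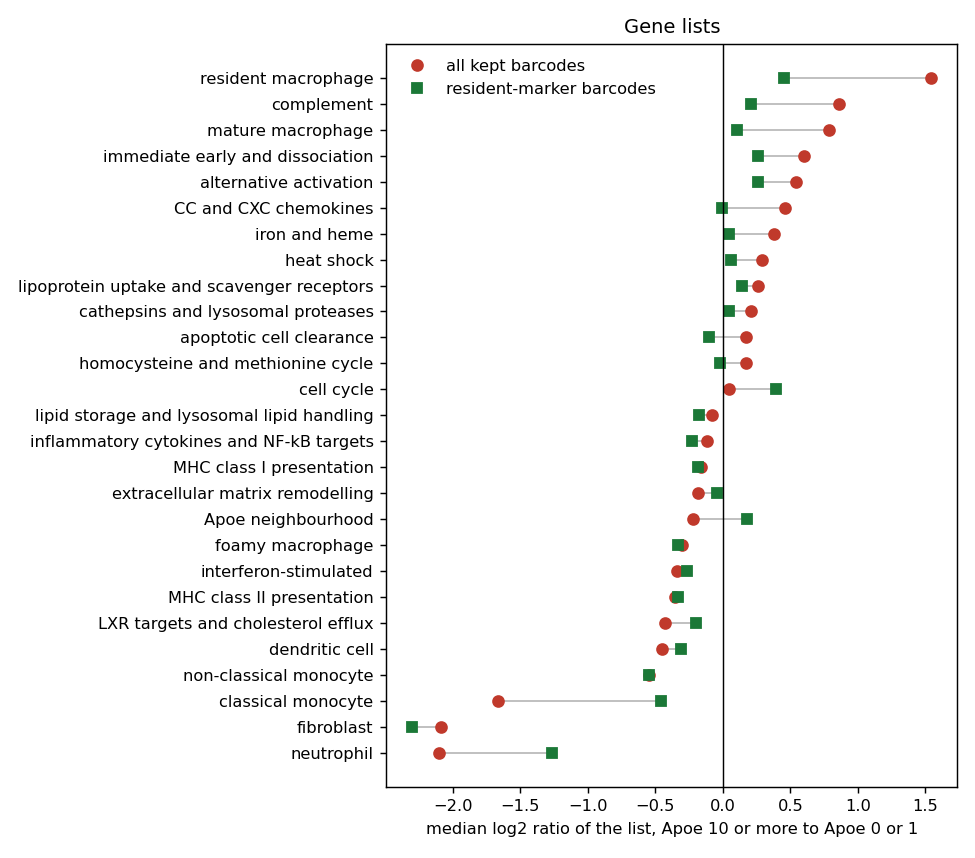
Median log2 ratio of each gene list with at least 5 tested genes (x axis), over all kept barcodes and within the resident-marker class. The resident macrophage list falls from 1.55 to 0.46, and the neutrophil and fibroblast lists are the lowest over all kept barcodes.

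Antigen presentation, interferon and inflammatory genes had medians below 0. Of all genes, 3.12% were at least 2-fold higher and 3.82% lower over all kept barcodes, and 0.512% and 1.85% in the resident-marker class. All 11 genes of the MHC class II list were below 0 over all kept barcodes, from -1.69 to Cd74 at -0.05, with a median of -0.36, and all 8 tested in the resident-marker class were below 0 with a median of -0.33. Of the 11, 1 was at least 2-fold lower, and 3 were, with a median of -0.55, without the barcodes rich in neutrophil, fibroblast or smooth muscle markers. Interferon-stimulated genes had medians of -0.34 over all kept barcodes, with 0 of 18 at least 2-fold higher and 2 lower (Ifi44 lowest at -2.31), and -0.27 in the class, with 0 of 16 at least 2-fold apart. Ifi202b, an interferon-inducible gene, was thus higher without the list. Inflammatory cytokine and NF-kB target genes had medians of -0.12, with 3 of 15 at least 2-fold lower against 3.82% of all genes (Il1b lowest at -1.33), and -0.23 in the class, with 2 of 12 lower (Ptgs2 lowest at -1.56). Without the barcodes rich in neutrophil, fibroblast or smooth muscle markers, 0 of 15 and 1 of 12 were at least 2-fold lower. Immediate early genes, which respond within minutes of tissue dissociation, had a median of 0.60 over all kept barcodes, with 1 of 15 at least 2-fold higher (Egr1, 1.11), and 0.26 in the class. Genes of homocysteine and methionine metabolism had a median of 0.17, with 0 of 9 at least 2-fold apart.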

How the data were processed

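The authors deposited raw UMI counts per gene and cell barcode for each library, from 10x 3′ v3 chemistry per the labels' protocols. The file headers name Cell Ranger 4.0.0, the submitters' processing notes Cell Ranger 2.2.0, and the build is mm10. Per-library totals were 66789257, 105180370 and 93164076 UMIs (control, HHcy, WD).

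Counts were summed per group and scaled to CPM. Log2 ratios have conditional binomial intervals, shares Clopper-Pearson ones and levels Poisson ones, at 95%. They cover counting error only. Genes needed 100 UMIs over both groups, and a 2-fold ratio was called. Named genes were the 12 with the highest lower bound and the 12 with the lowest upper bound per comparison, among genes detected in 10% of the higher group with at most 30% of UMIs in its 5 richest cells. One gene so named is not reported here. Members and lists were chosen with earlier results of these data known.

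No doublet caller was run; a barcode with 3 markers of another lineage was treated as possibly mixed, and 13 alternatives were tried. Shared barcodes between libraries numbered 24, 20 and 23, with 0 among kept ones. Empty droplets were not analysed here. Software was Python 3.11.15, numpy 2.4.6, scipy 1.17.1 and pandas 2.3.3.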

Additional observations from a re-analysis of the deposited data

Results flagged for a closer look

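Apoe also appeared in barcodes that the comparisons did not use, above the level of the control library. In the library labelled HHcy it stood at 52.3 CPM in B cell barcodes (control 5.21, WD 7.30), at 35.3 CPM in T cell barcodes (control 0, which allows up to 4.30 CPM; WD 8.02) and at 61.2 CPM in neutrophil barcodes (control 7.67, WD 12.6). In fibroblast-marker barcodes it stood at 124 CPM, with Apoe in 26 of 63; the control library had 0 UMIs in 25 barcodes, which allows up to 17.9 CPM, and WD stood at 6.67 CPM.

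Barcodes left out for Cd79a stood at 539 CPM (control 20.1, WD 20.2), with 275 of 1788 (15.4%) at 10 Apoe UMIs or more. The highest of them held 491 Apoe UMIs.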

How the results depend on the processing

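Of 67 values for the 6 summary results over 13 alternatives, 49 stayed near the reported value and 18 moved. For gene counts this compared the numbers, not which genes were called. Of genes higher in the resident-marker class, 19 of 28 were shared with the reported ones with at least 5 Apoe UMIs. With Apoe at 10 per 10000 UMIs, 13 of 31 were shared. Without barcodes with 3 or more markers of another lineage, where 1223 genes were tested, 0 of 2 higher and 2 of 15 lower genes were shared. The Apoe-high share of 13.2% was 16.3% with at least 5 Apoe UMIs and 10.6% with at least 20. With Apoe at 10 per 10000 UMIs, 146 genes were lower in the resident-marker class, in place of 83. With mitochondrial UMIs at most 5%, 59.2% of members were resident-marker barcodes. Without barcodes with 3 or more markers of another lineage (62 members, 301 in the comparison), 109 genes were higher and 193 lower, 2 and 15 in the resident-marker class, and 77.4% of members were resident-marker barcodes; Wfdc21 (1.21) and Upp1 (0.99) then had the opposite sign. After thinning each cell to 2000 UMIs, 109 genes were higher over all kept barcodes, 2 higher and 18 lower in the class, and 58.5% of members were resident-marker barcodes. With at least 20 UMIs per gene, which tests more genes, the counts were 595 and 810 over all kept barcodes and 226 and 427 in the class. One alternative was chosen after seeing the data, the removal of barcodes over 1% of neutrophil, fibroblast or smooth muscle markers. There, 52 genes were lower in the class, and S100a8 (0.32) and S100a9 (0.26), themselves among those neutrophil markers, had the opposite sign. Of 663 values for named genes, these 4 reversed. Another 519 lay within the reported interval and 140 outside it in the same direction. The Cd79a-positive barcodes, in which Grk3 and Slc7a11 changed sign, were not among these alternatives. The cause of each shift was not tested, except where fewer cells or more genes entered. No paired analysis was possible because each group is 1 library. Depth limits shares of barcodes with a gene: a barcode without a UMI may still express it.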

Other observations

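A small set of genes expressed together was also higher in members and was chosen after its values were seen: Prg4 (lubricin), Serpinb2 (a plasminogen activator inhibitor), Tgfb2, F3 (tissue factor) and Selp (P-selectin). Their log2 ratios were 1.72, 1.96, 2.26, 2.45 and 1.66 over all kept barcodes, and the lipoxygenase Alox15 was at 1.45. In the library labelled HHcy, 75 kept barcodes had at least 5 UMIs of the 5 genes together, 25 of them members and 46 with 0 or 1 Apoe UMI. The control library had 101 such barcodes and WD 133. Of the 25 members, 21 lay outside the resident-marker class. Ifi202b was found in 17 of these 25 members and in 0 of the 46, whereas Hal was found in 16 of the 25 and 23 of the 46, and in 48 of 101 in the control library and 60 of 133 in WD. Both genes were found in 10 of the 25 members, out of 11 members in all that carried both. Outside the resident-marker class, 13 of the 14 members with Hal belonged to this set, as did 23 of the 30 comparison barcodes with Hal. Within the set outside that class, Hal was in 13 of 21 members and 23 of 45 comparison barcodes.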
